A study of Sus scrofa with 12 samples.

Results

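Cultured smooth muscle cells of the pig coronary artery that received PDGF-BB together with S100A4 were compared with untreated cells. The comparison takes in every gene with at least 10 counts in 3 or more of the 6 libraries of those 2 groups, which left 12093 of the 21153 genes in the deposited table. Control cells received neither protein, and the treated cells received PDGF-BB at 30 ng/ml with S100A4 at 1 µg/ml for 4 h. Cells given PDGF-BB alone at 30 ng/ml, or S100A4 alone at 1 µg/ml, for the same 4 h serve here to show where the joint treatment differed from its parts. Each group had 3 libraries, numbered 1 to 3. All groups were primary cultures from coronary artery, used between passages 6 and 11, labelled as contractile and differentiated, and grown for 24 h in medium with 10% fetal calf serum before treatment, so the controls also had serum. The protein is called oS100A4 in the series' description of the design, which does not spell out the prefix and gives 3 animals as the source of the cells. It does not tie a library number to an animal. P-values here measure the spread left between these libraries once group and library number are fitted, and not a spread between known animals.

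PDGF-BB is a homodimeric platelet-derived growth factor. It binds receptor tyrosine kinases on smooth muscle cells, above all PDGFRB, and through the RAS, ERK and PI3K pathways it is known to drive growth, migration and loss of the contractile phenotype. S100A4 is a small calcium-binding protein that is also released from cells. Outside the cell it is known to signal through receptors such as RAGE (the product of AGER) and TLR4, which lead to the transcription factor NF-kB and to inflammatory gene expression.

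The labelled cell type was checked against marker genes. Smooth muscle markers were abundant in all 6 libraries: the summed level of 8 such genes ran from 9306 to 21876 CPM (counts scaled to a common library total) in control and from 7911 to 19223 CPM in treated cells. ACTA2, smooth muscle alpha-actin, made up most of this sum with 15099, 7622 and 17447 CPM in controls 1 to 3. TAGLN, a common marker of the lineage, was low at 4.00 to 7.21 CPM in control. Endothelial markers summed to 56.8 to 142 CPM in control and 134 to 210 CPM in treated cells, and of the 7 tested only ERG rose (1.32 ± 0.11 on the log2 scale, adjusted p = 3.84e-07), while PECAM1 and CDH5 did not pass. Fibroblast markers summed to 1148 to 1771 and 1130 to 1598 CPM. Their members split, with PDGFRA, DPT and TCF21 higher and DCN, LUM, PI16 and FAP lower. Macrophage markers summed to at most 11.9 CPM with CD163, C1QA and C1QB at 0, and T cell markers to at most 0.121 CPM with CD3D, CD3E, CD2 and CD5 at 0. In bulk samples such as these, fewer cells of a type and less RNA per cell cannot be told apart.

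The 6 libraries held 21455021 to 27707861 counts, and 1 CPM after TMM scaling stands for 21.2 to 29.5 counts. Libraries of the same number resembled each other across treatments. Within each group replicate 2 stood apart from replicates 1 and 3 on the first principal component of the 6 libraries, which held 48.9% of the variance. That component also held a treatment shift. Treated libraries 1 to 3 scored −0.082, 59.8 and −2.66 on it, and controls 1 to 3 −37.4, 24.7 and −44.3. Replicate 2 carried less ACTA2 and more PECAM1 and PDGFRA than the others. Other fibroblast markers went both ways: DCN, LUM, PI16 and DPT were highest in replicate 2, and COL14A1, MFAP5 and TCF21 lowest. Differences were therefore fitted within numbers, with the replicate number as a term beside the group. Log2 fold changes are from that fit with n = 3 libraries per group. They are given ± SE, taken as the absolute change divided by the square root of the test's F value. Adjusted p-values are those of edgeR's quasi-likelihood test after Benjamini-Hochberg adjustment over all 12093 genes. The words rose and fell are used of genes with an adjusted p under 0.05.

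The joint treatment changed a large share of the transcriptome. Of the 12093 genes, 3399 (28.1%) rose and 3547 (29.3%) fell against control, and 97.74% of these had the same sign in all 3 same-numbered pairs. Groups that do not overlap were common. Every treated library lay above every control in 20.14% of all genes tested, and below every control in 16.2%. Most changes were small: 5% of all genes had a log2 fold change under −0.77 and 5% one above 0.86, around a median of −0.02. At least 2-fold changes past the threshold were found in 459 genes that rose (3.8%) and 297 that fell (2.46%; 129 with a stricter filter on low counts). Of the first, 112 rose at least 4-fold and 41 at least 8-fold, and of the second 32 fell at least 4-fold. Without the pairing by number, 1655 of the 12093 genes rose and 1112 fell. All were among the genes called with it and in the same direction, and 554 of the 756 genes changed at least 2-fold still passed. List counts given below as without the pairing belong beside these 1655 and 1112 genes. The shares of 28.1% and 29.3% are those of the paired fit and are no background for them. With upper-quartile scaling the share of calls that were higher was 37.5%, against 48.9% here.

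**Figure D1:**
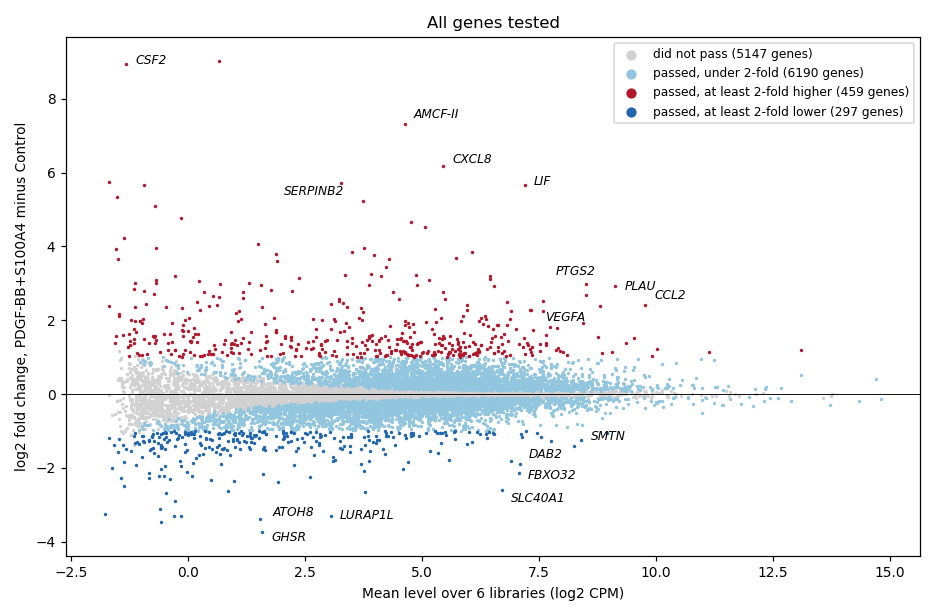
Log2 fold change of PDGF-BB+S100A4 minus Control against the mean log2 CPM over the 6 libraries, 1 point per gene tested, coloured by whether it passed an adjusted p of 0.05 and 2-fold. The 459 red genes reach far above 4 on the log2 scale, while the 297 blue ones end near −3.74 (GHSR); CSF2 had no control counts, so its fitted value has no firm size.

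Among genes with a symbol and a mean log2 CPM of at least 1, the neutrophil chemokines AMCF-II and CXCL8 had the largest rises. AMCF-II (ENSSSCG00000008957), a porcine CXC chemokine that draws neutrophils, lies on chromosome 8 at 70008225 to 70010360 of the build Sscrofa11.1. It stood at 0.966, 6.79 and 0.754 CPM in controls 1 to 3 and at 195, 699 and 276 CPM after the joint treatment. This is a 160.1-fold rise (7.32 ± 0.30, adjusted p = 3.89e-10), and every treated library lay far above every control. CXCL8 (ENSSSCG00000008953), interleukin 8, lies nearby at 69932646 to 69935861 and CXCL2 (ENSSSCG00000008959) at 70157253 to 70159145 of the same chromosome. CXCL8 went from 1.17, 29.8 and 2.17 CPM to 243, 973 and 357 CPM (6.18 ± 0.37, adjusted p = 9.87e-09). CXCL2, another ligand of the neutrophil receptor CXCR2, went from 2.37, 22.8 and 1.70 CPM to 97.9, 309 and 134 CPM (4.66 ± 0.28, adjusted p = 1.05e-08). For all 3 chemokines replicate 2 was the highest library in control and in treated cells. The groups did not overlap for them, with treated above control, as in 20.14% of all genes tested. CCL2, the main monocyte chemokine of smooth muscle, was abundant before treatment, at 312, 742 and 232 CPM, and reached 1757, 2619 and 1775 CPM (2.41 ± 0.17, adjusted p = 5.27e-08). Of all genes tested 28.1% rose and 29.3% fell. Of 6 chemokines tested, 5 rose (4 without the pairing) and none fell, with a median log2 fold change of 3.54 beside −0.02 for all genes. CCL5 was the fifth (2.01 ± 0.42), and CCL8 did not pass (0.35 ± 0.21, adjusted p = 0.16).

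Some of the molecules that bind leukocytes to the vessel wall rose strongly. ICAM1, a ligand of leukocyte integrins, went from 145, 168 and 119 CPM to 871, 970 and 904 CPM, a 6.39-fold rise (2.67 ± 0.07, adjusted p = 3.68e-11). Its relative ICAM4 was under 1 CPM in each control and at 10.4, 12.2 and 11.6 CPM after treatment (4.08 ± 0.16, adjusted p = 3.89e-10). VCAM1, which binds integrins of monocytes and lymphocytes, went from 23.6, 38.3 and 28.2 CPM to 127, 504 and 275 CPM (3.19 ± 0.17, adjusted p = 3.47e-09). None of these 3 genes overlapped between groups, and 20.14% of all genes tested were likewise higher without overlap. The treated VCAM1 values were more uneven than those of ICAM1. SELP, P-selectin, stood at 0.483, 48.2 and 2.31 CPM in control and at 19.7, 279.5 and 30.9 CPM in treated cells (3.26 ± 0.34, adjusted p = 2.06e-06). It rose in each pair, but treated libraries 1 and 3 lay below control 2, and the call was lost without the pairing (adjusted p = 0.417). SELP is otherwise known from platelets and endothelium. The endothelial marker ERG was higher in treated cells by the values above while PECAM1 and CDH5 were not, and the part of endothelial cells in the SELP level was not tested. In all, 6 of 13 adhesion molecules rose and 2 fell (ALCAM and JAM2, by 0.24 and 0.23), with a median of 0.14. Of all genes 28.1% rose and 29.3% fell. Without the pairing 5 adhesion molecules rose. No lower call was left without the pairing, and 1 in the 6 libraries alone or when control or treated library 1 or 3, or all libraries numbered 1 or 3, were left out.

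Genes of NF-kB signalling, both subunits and inhibitors, were higher. TNFAIP3, the ubiquitin-editing enzyme A20 that ends NF-kB signalling, went from 16.4, 22.1 and 12.8 CPM to 111, 135 and 101 CPM (2.77 ± 0.09, adjusted p = 7.15e-11). NFKB1, which encodes the p105 and p50 subunits, went from 53.2, 72.6 and 58.3 CPM to 165, 205 and 195 CPM (1.62 ± 0.05). NFKBIA, the classical inhibitor IkB-alpha, went from 37.2, 43.9 and 31.5 CPM to 111, 122 and 106 CPM (1.59 ± 0.07). Treated libraries were above all controls for each, as for 20.14% of all genes tested. Of 20 such genes, 16 rose and 1 fell (IKBKG, by 0.19), beside 28.1% and 29.3% of all genes, with a median of 0.53. Without the pairing 12 rose and none fell. Among 19 further inflammatory targets of the pathway 14 rose and 1 fell (TNFAIP8, by 0.59), with a median of 0.84; without the pairing 9 rose and 0 fell. They include the antiapoptotic gene IER3 (2.50 ± 0.11), the RNase gene ZC3H12A (1.81 ± 0.08) and mitochondrial superoxide dismutase SOD2 (1.20 ± 0.09). PTGS2, cyclooxygenase 2, went from 99.0, 198 and 111 CPM to 842, 1623 and 767 CPM (2.98 ± 0.20, adjusted p = 3e-08), and NLRP3, the sensor of the inflammasome, from 5.83, 22 and 8.63 CPM to 50.5, 126 and 94.3 CPM (2.96 ± 0.14, adjusted p = 1.52e-09). In the prostaglandin list PTGES, which makes prostaglandin E2, also rose (1.03 ± 0.09), while PTGIS, which makes prostacyclin, fell (−0.39 ± 0.05). Counted together, 5 of 9 prostaglandin genes rose and 2 fell, beside 28.1% and 29.3% of all genes. Without the pairing 2 rose and 1 fell. A single gene fell also with DESeq2, the stricter filter, and without number 1 or 3, control 1 or 2, or joint library 1 or 3.

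Several cytokines and growth factors rose strongly. LIF (ENSSSCG00000040961), a cytokine of the interleukin 6 family, lies on chromosome 14 at 47221540 to 47239513. It went from 21, 36.6 and 10.7 CPM to 912, 1543 and 820 CPM, a 50.8-fold rise (5.67 ± 0.16, adjusted p = 3.68e-11). IL11, of the same family, went from 12.4, 48.0 and 9.29 CPM to 198, 495 and 169 CPM (3.84 ± 0.22, adjusted p = 7.81e-09). IL1A, an alarm cytokine that signals through the interleukin 1 receptor, went from 2.17, 6.04 and 2.45 CPM to 16.9, 109 and 33.1 CPM (3.84 ± 0.17, adjusted p = 9.41e-10). As with the chemokines, replicate 2 was highest in both groups for these 3 genes. HBEGF, a ligand of the EGF receptor, went from 4.18, 7.77 and 5.70 CPM to 42.5, 66.3 and 50.1 CPM (3.20 ± 0.13), and VEGFA, the endothelial growth factor, from a mean of 193 ± 18 to 1044 ± 279 CPM (SD, n = 3). CSF2, which encodes GM-CSF, had 0 counts in all 3 controls and 28, 91 and 40 counts in treated libraries 1 to 3. Taking 3 counts over the control group as its limit, CSF2 was at least 56.1-fold higher. It passed the filter on low counts through the treated libraries alone and is part of the count that follows. Of 37 genes in the list 26 rose and 6 fell, beside 28.1% and 29.3% of all genes, with a median of 0.83. Without the pairing 15 rose and 1 fell. BDNF, a neurotrophin, fell most among them, from 13.1, 17.9 and 17.0 CPM to 5, 4.25 and 4.39 CPM (−1.81 ± 0.16, adjusted p = 3.6e-07).

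**Figure D2:**
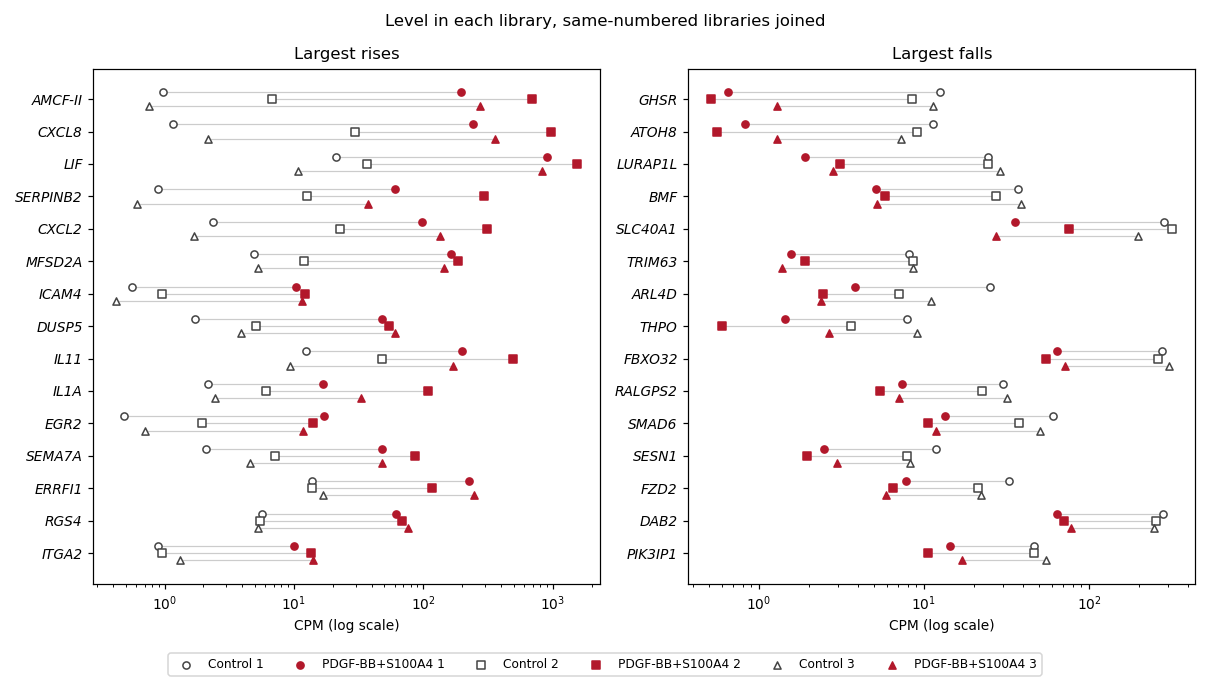
Level in CPM (log axis) of the 15 genes with the largest rises and the 15 with the largest falls; open symbols are controls, filled symbols PDGF-BB+S100A4, and lines join libraries of the same number. Treated and control libraries are separate in every row. Among the rises, replicate 2 lies to the right in both groups for the chemokines, LIF, SERPINB2, IL11, IL1A, MFSD2A, ICAM4 and SEMA7A.

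Transcripts of the plasminogen system, which dissolves fibrin and opens matrix for migrating cells, rose on both the protease and the inhibitor side. PLAU, urokinase, went from 194, 164 and 256 CPM to 1527, 1467 and 1649 CPM (2.93 ± 0.09, adjusted p = 6.59e-11). Its receptor PLAUR went from 125, 118 and 137 CPM to 463, 392 and 451 CPM (1.78 ± 0.07). SERPINB2, plasminogen activator inhibitor 2, went from 0.885, 12.6 and 0.613 CPM to 60.0, 294 and 37.3 CPM (5.23 ± 0.48, adjusted p = 6.63e-07). PLAU and PLAUR were even across replicates, whereas SERPINB2 was highest in replicate 2, did not overlap between groups, and lost its call without the pairing (adjusted p = 0.106). The protease inhibitor SERPINE2 rose by 1.39 ± 0.04, and tissue factor F3, which starts coagulation, by 1.81 ± 0.14. Of all genes 28.1% rose and 29.3% fell. Of 11 genes of the plasminogen list 8 rose (6 without the pairing) and 2 fell (PLAT and TFPI2, by 0.28 and 0.16), with a median of 1.20. The 2 lower calls were absent without the pairing and without the libraries numbered 1, and 1 was left without number 3, control 1 or treated library 1.

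Feedback inhibitors of the ERK cascade, which growth factor receptors switch on and which then dampen it, rose almost as a whole. Of 20 tested 19 rose and none fell, beside 28.1% and 29.3% of all genes, and the median was 1.09. Without the pairing 14 rose. DUSP5, a phosphatase of ERK, went from 1.73, 5.09 and 3.91 CPM to 48.3, 54.7 and 60.1 CPM (3.97 ± 0.20, adjusted p = 2.19e-09). ERRFI1, an inhibitor of the EGF receptor, went from 13.8, 13.8 and 16.8 CPM to 227, 116 and 249 CPM (3.68 ± 0.17, adjusted p = 1.32e-09). SPRY2, a Sprouty protein that blocks RAS activation, went from 14.8, 17.9 and 20.4 CPM to 87.8, 68.8 and 105 CPM (2.29 ± 0.14). Groups did not overlap for any of these, and 20.14% of all genes tested were likewise higher without overlap. Replicate 2 was the lowest treated library for ERRFI1 and SPRY2. DUSP8 was the member that did not pass (0.07). Immediate early transcription factors rose in 21 of 29 cases (18 without the pairing) and fell in 4, with a median of 0.95. The rises include EGR3, which passed the filter through the treated libraries alone. EGR2, a zinc finger factor, went from 0.483, 1.93 and 0.707 CPM to 17.0, 14.0 and 11.8 CPM (3.79 ± 0.31), MYC from 58.0, 53.5 and 49.4 to 173, 122 and 167 CPM (1.51 ± 0.08). FOSL2 and FOS, parts of the AP-1 factor, were among the 4 that fell, FOSL2 from 782, 702 and 649 CPM to 361, 321 and 353 CPM (−1.04 ± 0.05, adjusted p = 2.28e-09). Without the pairing 2 of the 4 falls passed.

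Genes for making ribosomes and folding proteins moved in 1 direction. All 42 tested ribosome biogenesis genes rose (39 without the pairing), with a median of 0.83, beside 28.1% of all genes tested. DDX21, a nucleolar helicase, went from 115, 147 and 120 CPM to 322, 321 and 317 CPM (1.34 ± 0.06), and BYSL, needed for the small subunit, from 33.9, 42.3 and 32.5 CPM to 80.5, 95.6 and 87.8 CPM (1.28 ± 0.06). Pair 2 had the smallest median, 0.75, beside 0.89 and 0.84 in pairs 1 and 3. All 16 chaperone genes rose as well (median 0.40), and 11 did so without the pairing. The constitutive HSP70 gene HSPA8 led them, at 1445, 1680 and 1421 CPM in control and 3508, 3033 and 3424 CPM in treated cells (1.14 ± 0.07). Of 21 translation factors 18 rose (15 without the pairing) and 2 fell (median 0.34). The fallers were EEF2K, the kinase that inhibits elongation factor 2 (by 0.36), and EIF4EBP2, which binds the cap-binding protein (by 0.19), and neither passed without the pairing. Of 30 proteasome genes 20 rose and none fell, but the median was only 0.16, with 7 higher without the pairing, 12 without the libraries numbered 1, and 11 higher and 2 lower under upper-quartile scaling. A single proteasome gene was lower under RLE scaling, the stricter filter, or without treated library 2.

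Metabolic genes were mixed, beside 28.1% of all genes higher and 29.3% lower. Of 24 glycolysis and hypoxia genes 13 rose and 6 fell (median 0.13), and 3 and 3 without the pairing. EGLN3, an oxygen sensor, went from 33.6, 39.8 and 50.9 CPM to 150, 116 and 204 CPM (1.90 ± 0.12), and HK2, the inducible hexokinase, from 46.8, 69.2 and 49.6 CPM to 170, 165 and 150 CPM (1.56 ± 0.14). ADM, adrenomedullin, fell by 0.63. Of 29 genes for sterols and fatty acids 14 rose and 5 fell (median 0.15), with 4 and 2 without the pairing and 8 lower under upper-quartile scaling. FASN, fatty acid synthase, went from 279, 388 and 323 CPM to 585, 676 and 595 CPM (0.92 ± 0.06). In the list of unfolded protein and amino acid stress 11 of 22 rose (8 without the pairing) and 5 fell (median 0.12). The endoplasmic reticulum chaperones HSPA5 (0.80 ± 0.05) and HYOU1 (0.69 ± 0.05) rose, and CHAC1 and SESN2, known targets of the amino acid stress factor ATF4, fell by 0.56 and 0.69. None of the 5 falls passed without the pairing, and 3 passed without the libraries numbered 1, without treated library 1, or in the 6 libraries alone. Of 18 amino acid transporters and serine synthesis genes 5 rose and 8 fell, with 0 and 1 without the pairing and 5 lower without the libraries numbered 3.

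**Figure D3:**
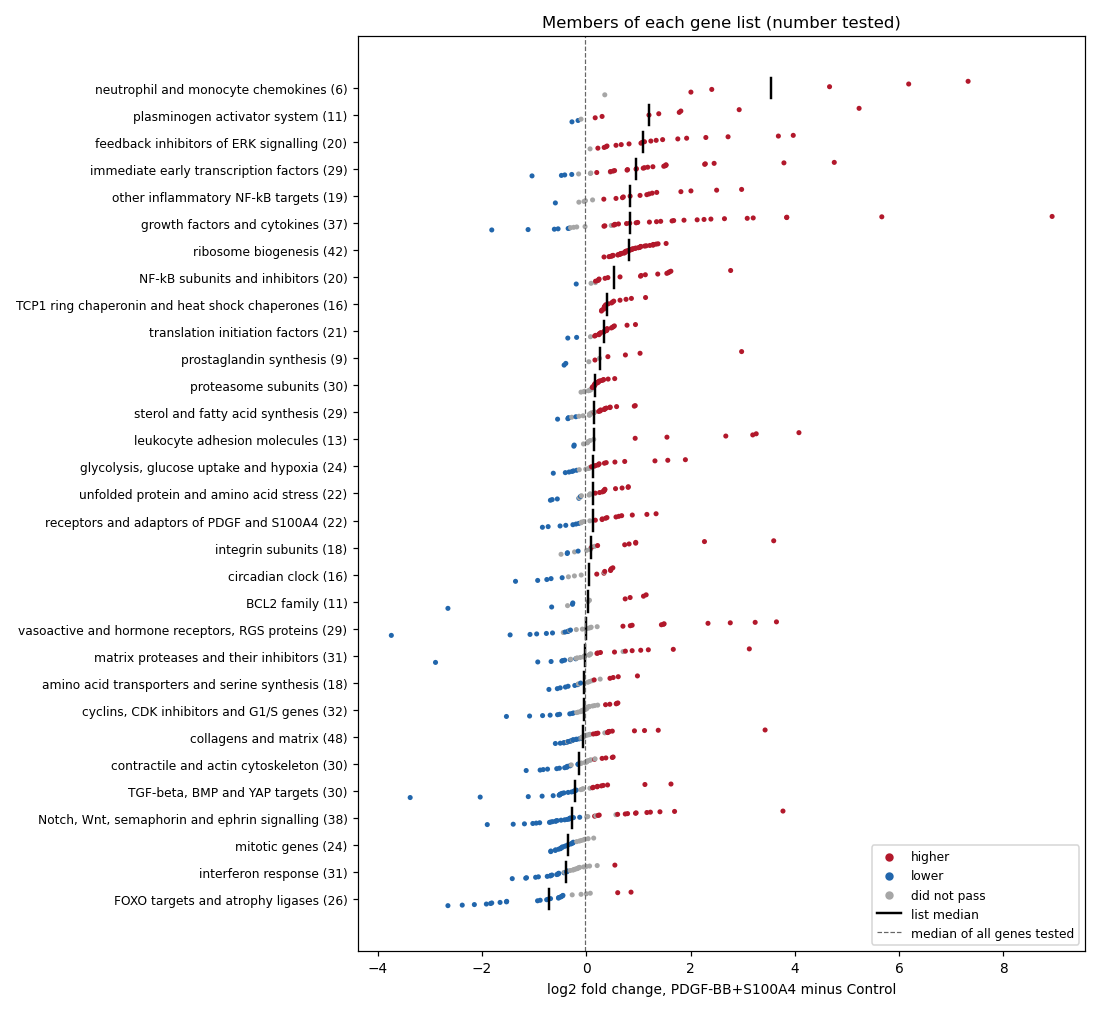
Log2 fold change of PDGF-BB+S100A4 minus Control for the tested members of 31 gene lists, sorted by list median (black bar), with the median of all genes tested as a dashed line. Chemokines have the highest median, 3.54, all 42 ribosome biogenesis genes lie right of 0, and the targets of FOXO have the lowest median, −0.71.

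The gene group with the lowest median was that of FOXO transcription factor targets, which growth factor signalling through AKT is known to switch off. Of 26 tested 20 fell and 2 rose (TRIB2 and ARRDC4, by 0.86 and 0.60), with a median of −0.71. Of all genes 29.3% fell and 28.1% rose. Without the pairing 14 FOXO targets fell and 2 rose, beside 1112 and 1655 of the 12093 genes tested. FBXO32, the muscle ubiquitin ligase atrogin 1, went from 277, 261 and 304 CPM to 64.1, 55.1 and 71.9 CPM, a 4.43-fold fall (−2.15 ± 0.08, adjusted p = 2.82e-10). TRIM63, the other atrophy ligase MuRF1, went from 8.17, 8.58 and 8.63 CPM to 1.57, 1.91 and 1.38 CPM (−2.38 ± 0.14, adjusted p = 8.85e-09). BMF, a killer protein of the BCL2 family, went from 37.1, 27.5 and 38.9 CPM to 5.13, 5.84 and 5.21 CPM (−2.65 ± 0.11, adjusted p = 5.15e-10). For these 3 genes the treated libraries were all close together and far below the controls. PIK3IP1, an inhibitor of PI3 kinase, fell by 1.84 ± 0.10 and the stress protein SESN1 by 1.92 ± 0.14. Within the BCL2 family 4 of 11 genes rose and 4 fell, beside 28.1% and 29.3% of all genes. The survival gene MCL1 went from 364, 318 and 390 CPM to 841, 699 and 834 CPM (1.15 ± 0.05), and the killer gene BAK1 also rose (1.10 ± 0.06). Without the pairing 2 rose and 1 fell.

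Regulators of the cell cycle passed no more often than genes in general, and a few had large changes. CDKN1B, the inhibitor p27 and itself a FOXO target, went from 60.8, 56.9 and 65.4 CPM to 21.9, 23.8 and 17.5 CPM (−1.53 ± 0.10, adjusted p = 2.32e-08), and CDKN2B, the inhibitor p15, from 15.2, 15.9 and 17.5 CPM to 7.09, 8.10 and 7.62 CPM (−1.09 ± 0.09). CCND1, cyclin D1, went from 204, 240 and 244 CPM to 331, 363 and 330 CPM (0.57 ± 0.05, adjusted p = 3.4e-07). So the named inhibitors were lower and the G1 cyclin higher in every treated library than in any control. Such separation was found in 16.2% of all genes tested for lower and 20.14% for higher. In the whole list 5 of 32 rose and 9 fell (median −0.04), beside 28.1% and 29.3% of all genes, with 3 and 3 without the pairing and 14 lower under upper-quartile scaling. None of the MCM genes of DNA replication passed. Genes of mitosis were lower: 17 of 24 fell and none rose, with a median of −0.35. BUB1B, a checkpoint kinase, showed how far the replicates differed, at 40.5, 58.5 and 14.2 CPM in control and 24.1, 38.8 and 8.57 CPM in treated cells (−0.68 ± 0.09, adjusted p = 3.4e-05). Controls and treated libraries overlapped for this gene although each pair fell. None of the 17 falls passed without the pairing, and without treated library 2 a single gene rose.

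Among contractile genes 14 of 30 fell and 5 rose, beside 29.3% and 28.1% of all genes, and the median was −0.13. Only 1 of them fell at least 2-fold. SMTN, smoothelin, a marker of the contractile state, went from 435, 402 and 538 CPM to 279, 219 and 276 CPM (−0.83 ± 0.05, adjusted p = 1.59e-08), and MYLK, myosin light chain kinase, from 535, 529 and 681 CPM to 410, 352 and 458 CPM (−0.52 ± 0.04, adjusted p = 2.7e-07). SYNPO2, an actin-bundling protein, went from 212, 195 and 504 CPM to 97.6, 89.6 and 217 CPM (−1.15 ± 0.07). For SMTN and MYLK no treated library reached the lowest control, while for SYNPO2 treated library 3 lay above controls 1 and 2. MYH11, the smooth muscle myosin heavy chain, was 1200, 438 and 1812 CPM in control and 1093, 316 and 1298 CPM in treated cells (−0.36 ± 0.07, adjusted p = 0.00068). The most abundant contractile gene, ACTA2, was 15998, 6659 and 15026 CPM after treatment and did not pass (−0.11 ± 0.05, adjusted p = 0.071). Its fitted change was between −0.12 and −0.20 and passed under RLE or upper-quartile scaling, the stricter filter, and without control 1, treated library 1 or all libraries numbered 1, and it was −0.11 with an adjusted p of 0.024 without a filter. CNN1, calponin, and TAGLN did not pass (−0.03 ± 0.05 and 0.17 ± 0.13, adjusted p = 0.65 and 0.28), and the intermediate filament gene DES rose (0.50 ± 0.08). Without the pairing 4 contractile genes fell and 1 rose. SYNPO2 and MYH11 then did not pass (adjusted p = 0.195 and 0.811). Replicate 2 had the lowest control level of MYH11 and ACTA2, and fibroblast markers went both ways in it. PDGFRA (132 CPM), DCN, LUM, PI16 and DPT were highest in control 2, while COL14A1, MFAP5 and TCF21 were lowest in it. The part of cell composition in these levels was not tested.

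Of 29 receptors for vasoactive agents and RGS proteins, which end G-protein signals, 10 rose and 10 fell, beside 28.1% and 29.3% of all genes. RGS4 went from 5.63, 5.50 and 5.23 CPM to 61.4, 68.9 and 76.2 CPM (3.65 ± 0.13, adjusted p = 1.94e-10). BDKRB2, the bradykinin receptor, went from 2.09, 3.94 and 4.19 CPM to 23.7, 40.2 and 30.8 CPM (3.24 ± 0.11, adjusted p = 1.08e-10). GHSR (ENSSSCG00000020906), the ghrelin receptor, on chromosome 13 at 110981465 to 111006149, was the largest fall among the named genes. It went from 12.6, 8.48 and 11.4 CPM to 0.652, 0.516 and 1.29 CPM, 13.4-fold lower (−3.74 ± 0.19, adjusted p = 2.34e-09). RGS4 was even across replicates, while the low levels of BDKRB2 in control and of GHSR in treated cells were less so. The groups did not overlap for any of the 3. Among all genes tested, 20.14% were higher and 16.2% lower without overlap. Receptors of the vasoconstrictors angiotensin II (AGTR1, −0.95 ± 0.10) and endothelin (EDNRA, −1.46 ± 0.14) fell. Without the pairing 4 rose and 3 fell, and with the stricter filter 6 rose.

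Of 48 collagen and matrix genes 14 rose and 17 fell (median −0.06), shares near the 28.1% and 29.3% of all genes, and 2 and 2 did so without the pairing. HAS2, which makes hyaluronan, went from 7.16, 14.6 and 1.27 CPM to 56.0, 146 and 36.6 CPM (3.43 ± 0.21, adjusted p = 1.1e-08). SPP1, osteopontin, went from 100.3, 141 and 135 CPM to 289.5, 273 and 424 CPM (1.38 ± 0.11). The fibrillar collagens COL1A1, COL1A2 and COL3A1 fell by 0.14, 0.19 and 0.30. Proteases of the matrix rose in 10 and fell in 8 of 31 cases, also near the shares of all genes, and in 2 and 2 without the pairing. The count holds ADAMTS15, which passed the filter on low counts through the controls alone. ADAMTS4, an aggrecanase, went from 27.0, 30.1 and 31.4 CPM to 209, 347 and 230.5 CPM (3.13 ± 0.22, adjusted p = 6.14e-08), while its relatives ADAMTS5 and ADAMTS15 fell by 0.93 and 2.89. Integrins rose in 8 of 18 cases and fell in 3, with 4 and 0 without the pairing. ITGA2, a collagen receptor subunit, went from 0.885, 0.950 and 1.32 CPM to 10.0, 13.5 and 14.1 CPM (3.59 ± 0.14), and ITGB3, part of the vitronectin receptor, from 48.6, 142 and 53.7 CPM to 257, 502 and 327 CPM (2.27 ± 0.12).

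Developmental signalling genes fell more often than they rose in the fit with the pairing, beside 29.3% of all genes lower and 28.1% higher. In the list of TGF-beta, BMP and YAP targets 17 of 30 fell and 9 rose (median −0.22); without the pairing 10 fell and 3 rose, and without the libraries numbered 1 only 5 rose. ATOH8, a target of BMP signalling, went from 11.4, 9.06 and 7.26 CPM to 0.826, 0.556 and 1.29 CPM (−3.38 ± 0.24, adjusted p = 5.32e-08). SMAD6, an inhibitor that BMP signals induce, went from 60.3, 37.6 and 50.4 CPM to 13.3, 10.6 and 11.8 CPM (−2.04 ± 0.09, adjusted p = 8.42e-10), and ID2, another BMP target, from 81.8, 47.4 and 78.5 CPM to 33.1, 22.3 and 40.6 CPM (−1.11 ± 0.08). The groups did not overlap for these 3 genes, and 16.2% of all genes tested were likewise lower without overlap. SNAI1, a repressor linked to migration, rose from 24.2, 22.3 and 19.1 CPM to 66.4, 66.2 and 69.5 CPM (1.62 ± 0.09). Of 38 Notch, Wnt, semaphorin and ephrin genes 21 fell and 13 rose (median −0.28), with 4 and 5 without the pairing. The Notch ligand JAG1 went from 675, 248 and 713 CPM to 237, 107 and 256 CPM (−1.40 ± 0.06); treated libraries 1 and 3 were near control 2, and the call was lost without the pairing (adjusted p = 0.101). The Wnt receptor FZD2 fell by 1.90 ± 0.10, and the semaphorin SEMA7A rose from 2.09, 7.19 and 4.57 CPM to 48.0, 85.5 and 48.0 CPM (3.77 ± 0.17, adjusted p = 1.19e-09).

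Interferon response genes were lower in 17 of 31 cases and higher in 1 (PSMB9), with a median of −0.38. Of all genes 29.3% fell and 28.1% rose. USP18, which limits interferon signalling, went from 30.8, 8.99 and 48.3 CPM to 14.8, 4.05 and 20.5 CPM (−1.15 ± 0.08, adjusted p = 6.9e-08). Control 2 lay below treated libraries 1 and 3, so the fall was within pairs only. The median level of the 31 genes in control 2 was 1.88 lower on the log2 scale than the mean of controls 1 and 3, and without the pairing 1 gene fell and 0 rose. The single rise was absent under DESeq2, upper-quartile scaling and the stricter filter, and without the libraries numbered 1 or 2, controls 1 or 2, or treated libraries 2 or 3. It became 2 without number 3 or control 3. Clock genes rose in 7 and fell in 5 of 16 cases, beside 28.1% and 29.3% of all genes. Without the pairing 2 rose and 3 fell, and 3 fell with the stricter filter. NR1D2, a repressor in the clock, went from 77.0, 84.0 and 83.1 CPM to 35.2, 53.1 and 40.3 CPM (−0.93 ± 0.08).

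The receptors for the added proteins were measured as well. PDGFRB was 895, 441 and 889 CPM in control and 833, 387 and 809 CPM in treated cells (−0.14 ± 0.04, adjusted p = 0.0047). PDGFRA was far less even, at 30.6, 132 and 8.30 CPM and then 43.9, 144 and 14.6 CPM (0.40 ± 0.09, adjusted p = 0.0025). TLR4 was 5.47, 14.3 and 4.34 CPM in control and 0.739, 12.2 and 2.41 CPM in treated cells (−0.84 ± 0.27, adjusted p = 0.015). The 3 calls were lost without the pairing (adjusted p = 0.872, 0.93 and 0.731). That of TLR4 was lost also in a fit of the 6 libraries alone, with limma-voom, and without control 1 or number 3 (adjusted p = 0.0515 to 0.0982), and that of PDGFRA without number 1 (adjusted p = 0.0538). AGER did not reach the minimum count for testing. The cells' own S100A4 transcript stood at 94.0, 138 and 64.8 CPM in control and 86.7, 117 and 69.6 CPM in treated cells and did not pass (−0.09 ± 0.07, adjusted p = 0.25), but it did under upper-quartile scaling (−0.17, adjusted p = 0.0367). TICAM1, the adaptor of TLR3 and TLR4, rose by 1.34 ± 0.08. Over 22 receptors and adaptors 11 rose and 7 fell, beside 28.1% and 29.3% of all genes, and 6 and 0 without the pairing.

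The joint treatment was next compared with each protein alone. These comparisons use the same 3 joint libraries as the one with control, so their results are not independent of it. Against PDGF-BB alone 622 genes (5.14%) were higher and 249 (2.06%) lower. Against S100A4 alone 3083 (25.5%) were higher and 2846 (23.5%) lower. Without the pairing the counts were 34 and 0 against PDGF-BB, with edgeR's test, and 1184 and 702 against S100A4. The counts against PDGF-BB also moved with single libraries. Higher genes numbered 283, 274 and 408 without number 1, number 3 and joint library 3, and lower genes 72, 627 and 40 without numbers 1, 2 and 3, 464 without joint library 2 and 88 without joint library 3. Against S100A4 the lower genes numbered 1862 without number 1.

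**Figure D4:**
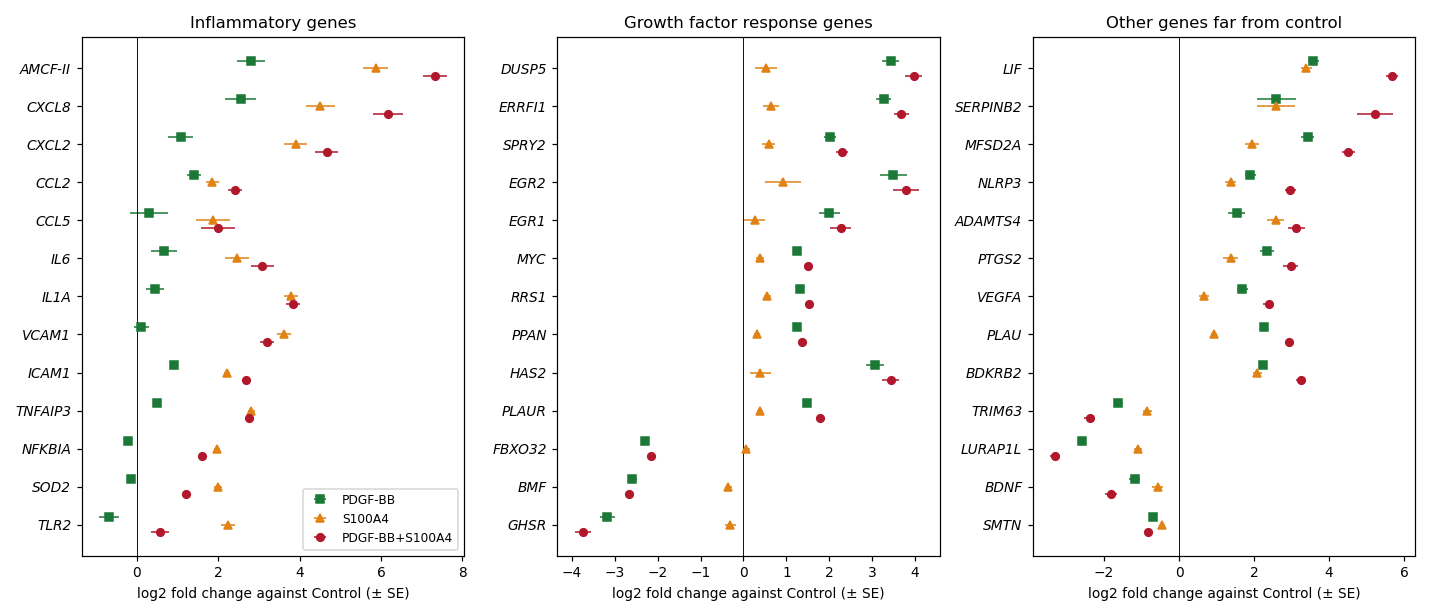
Log2 fold change against Control ± SE for PDGF-BB alone (squares), S100A4 alone (triangles) and both (circles), for genes chosen after their values were seen. Points of S100A4 and the joint treatment lie close for IL1A and TNFAIP3, those of PDGF-BB and the joint treatment for EGR2, BMF and FBXO32, and for LIF and SERPINB2 the joint treatment lies beyond both.

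Inflammatory genes separated the joint treatment from PDGF-BB alone. Of all genes 5.14% were higher and 2.06% lower than with PDGF-BB, and 25.5% and 23.5% than with S100A4. All 5 chemokines that rose against control were higher than with PDGF-BB, and 4 of the 6 tested were also higher than with S100A4. AMCF-II stood at 5.27, 54.3 and 7.16 CPM with PDGF-BB and at 66.4, 351 and 82.6 CPM with S100A4. The joint level was 4.52 ± 0.23 above the first and 1.45 ± 0.19 above the second on the log2 scale (adjusted p = 1.94e-08 and 2.59e-05). CXCL8 stood at 13.5, 154 and 22.8 CPM with PDGF-BB and 48.0, 661 and 87.6 CPM with S100A4 (differences of 3.63 ± 0.30 and 1.67 ± 0.27, adjusted p = 3.6e-06 and 0.00017). In each pair the joint library was the highest of the 4 for both chemokines. IL1A behaved otherwise: S100A4 alone gave 16.8, 112 and 28.5 CPM, and the joint treatment differed from it by 0.05 ± 0.12 (adjusted p = 0.74) but from PDGF-BB by 3.39 ± 0.16 (adjusted p = 1.04e-08). Of 20 NF-kB subunits and inhibitors 11 were higher and none lower than with PDGF-BB. Against S100A4 5 were higher and 5 lower, near the shares of all genes. The further NF-kB targets gave 13 and 0 against PDGF-BB and 6 and 7 against S100A4.

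Several of these genes were lower with both proteins than with S100A4 alone. SOD2 averaged 155 ± 30 CPM in control, 141 ± 19 with PDGF-BB, 629.6 ± 165 with S100A4 and 364 ± 106 CPM with both (SD, n = 3), and the joint level was 0.80 ± 0.09 below S100A4 alone (adjusted p = 5.9e-06). TLR2, a receptor for bacterial lipoproteins, averaged 1.86 CPM in control, 1.16 with PDGF-BB, 8.82 with S100A4 and 2.78 with both (−1.68 ± 0.17 against S100A4, adjusted p = 2.4e-06). NFKBIZ, an inducible nuclear regulator of NF-kB, averaged 63.1, 44.4, 156 and 74.4 CPM in the same order (−1.07 ± 0.07, adjusted p = 9.5e-08). SLC7A2, an arginine transporter, averaged 19.4, 8.74, 90.4 and 39.9 CPM (−1.16 ± 0.19, adjusted p = 0.00018). For TLR2, NFKBIZ and SLC7A2, PDGF-BB alone lay below control, S100A4 alone above it, and the joint treatment between the 2 single treatments. VCAM1 was also lower with both than with S100A4, by 0.43 ± 0.14 (adjusted p = 0.023).

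Growth factor response genes separated the joint treatment from S100A4 alone and little from PDGF-BB alone. Of all genes 25.5% were higher and 23.5% lower than with S100A4, and 5.14% and 2.06% than with PDGF-BB. Of 42 ribosome biogenesis genes 40 were higher than with S100A4 and 2, near the share of all genes, higher than with PDGF-BB. None was lower in either. The chaperones gave 16 of 16 higher against S100A4 and 0 in either direction against PDGF-BB. ERK feedback inhibitors gave 17 higher of 20 against S100A4, and 1 higher and 2 lower against PDGF-BB. FOXO targets gave 19 lower and 2 higher of 26 against S100A4, and 1 lower and 4 higher against PDGF-BB. RGS4 shows the pattern, with 67.3, 68.4 and 88.3 CPM with PDGF-BB and 3.83, 6.88 and 4.47 CPM with S100A4; the joint level differed by −0.12 ± 0.10 from the first (adjusted p = 0.55) and by 3.76 ± 0.13 from the second (adjusted p = 6.71e-10). FBXO32 stood at 68.3, 44.0 and 62.2 CPM with PDGF-BB and 295, 243 and 357 CPM with S100A4 (0.14 ± 0.08 and −2.22 ± 0.08, adjusted p = 0.37 and 8.91e-10). A p that misses the threshold does not show equal levels, and the SEs give only roughly the room left for a difference.

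A further set differed from either single treatment: 337 genes (2.787%) passed higher in both direct comparisons and 159 (1.315%) lower. LIF stood at 199, 501 and 153 CPM with PDGF-BB and 165, 419 and 151 CPM with S100A4, and the joint level was 2.09 ± 0.13 and 2.27 ± 0.13 higher (adjusted p = 2.4e-07 and 2.61e-08). SERPINB2 stood at 10.7, 63.6 and 4.22 CPM and at 2.54, 102 and 1.57 CPM, below the joint level by 2.64 ± 0.37 and 2.65 ± 0.37. MFSD2A, which carries lysophospholipids into cells, stood at 70.2, 99.3 and 66.2 CPM and at 19.5, 44.4 and 22.6 CPM, against 163, 186 and 144 CPM with both (1.09 ± 0.13 and 2.57 ± 0.14 higher). In every pair the joint library was the highest for these 3 genes. NLRP3, SELP, CDC42EP2 (an effector of the GTPase CDC42), SLC46A2 and the collagenase MMP1 completed, with both chemokines above, the 10 genes with the largest such differences. On the lower side LURAP1L stood at 4.05, 4.89 and 3.97 CPM with PDGF-BB, 12.1, 11.0 and 13.1 CPM with S100A4 and 1.91, 3.10 and 2.80 CPM with both (−0.72 ± 0.16 and −2.21 ± 0.14, adjusted p = 0.0133 and 4.99e-08). TRIM63, BDNF, TRAF5, HEPACAM, RTKN2, NHS, KBTBD3, SORBS2 and HAND2 were the others. Of the 40 single differences of these 20 genes 33 lost their call without the pairing. Several also lost the call against PDGF-BB in other ways. LURAP1L lost it without number 1 or 3 or joint library 1 or 3 (adjusted p = 0.0603 to 0.141), RTKN2 without those or number 2 (0.0555 to 0.109), and KBTBD3 without those first 4 or control 1 or 3 (0.0511 to 0.399). TRIM63 and NHS lost it without number 1 or 3 or joint library 3 (0.0518 to 0.215), and BDNF without number 3, control 3 or joint library 2 or 3 (0.0526 to 0.394). SELP lost it without number 3 or with limma-voom (0.081 and 0.107), HEPACAM without number 3 or with DESeq2 (0.0902 and 0.077), MMP1 without number 1 or joint library 3 or with DESeq2 (0.0803 to 0.211), and HAND2 without number 2 (0.111). Against S100A4 KBTBD3 lost it without number 1 or 3 or joint library 1 or 3 (0.0528 to 0.23), and HAND2 without joint library 2 or with limma-voom (0.0619 and 0.0653).

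The interaction term compares the joint log2 change with the single changes added together. It is negative where the joint change was smaller than that sum, and it uses all 12 libraries. It passed as positive in 2 genes (0.0165%) and as negative in 11 (0.091%), while 1163 had an unadjusted p under 0.05. PTHLH, the parathyroid hormone-like hormone, averaged 9.44 CPM in control, 16.5 with PDGF-BB, 37.6 with S100A4 and 25.6 with both (interaction −1.35 ± 0.11, adjusted p = 0.00016). So the joint level lay below that of S100A4 alone. LIF rose far above either treatment yet had a negative interaction (−1.31 ± 0.20, adjusted p = 0.03), since its joint log2 change of 5.67 was under the sum of 3.58 and 3.40. BDKRB2 had single changes of 2.23 and 2.08 and a joint change of 3.24 (interaction −1.08 ± 0.15, adjusted p = 0.03). The call of LIF was lost without number 1, number 3, control 3 or joint library 1 (adjusted p = 0.0539 to 0.168), and that of BDKRB2 without number 1 or joint library 3 (adjusted p = 0.0868 to 0.23). AMCF-II and CXCL8 did not pass (−1.35 ± 0.40 and −0.87 ± 0.45, adjusted p = 0.30 and 0.56), nor did SERPINB2 (0.05 ± 0.65, adjusted p = 0.98). With edgeR and no pairing no gene passed, and 146 had an unadjusted p under 0.05; DESeq2 called 12 positive and 49 negative. Without number 1 the counts were 0 and 1, without number 2 19 and 100, and without number 3 0 and 2. Leaving out controls 1, 2 and 3 in turn gave 7, 24 and 2 negative genes, and leaving out joint libraries 1, 2 and 3 gave 2, 25 and 3.

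**Figure D5:**
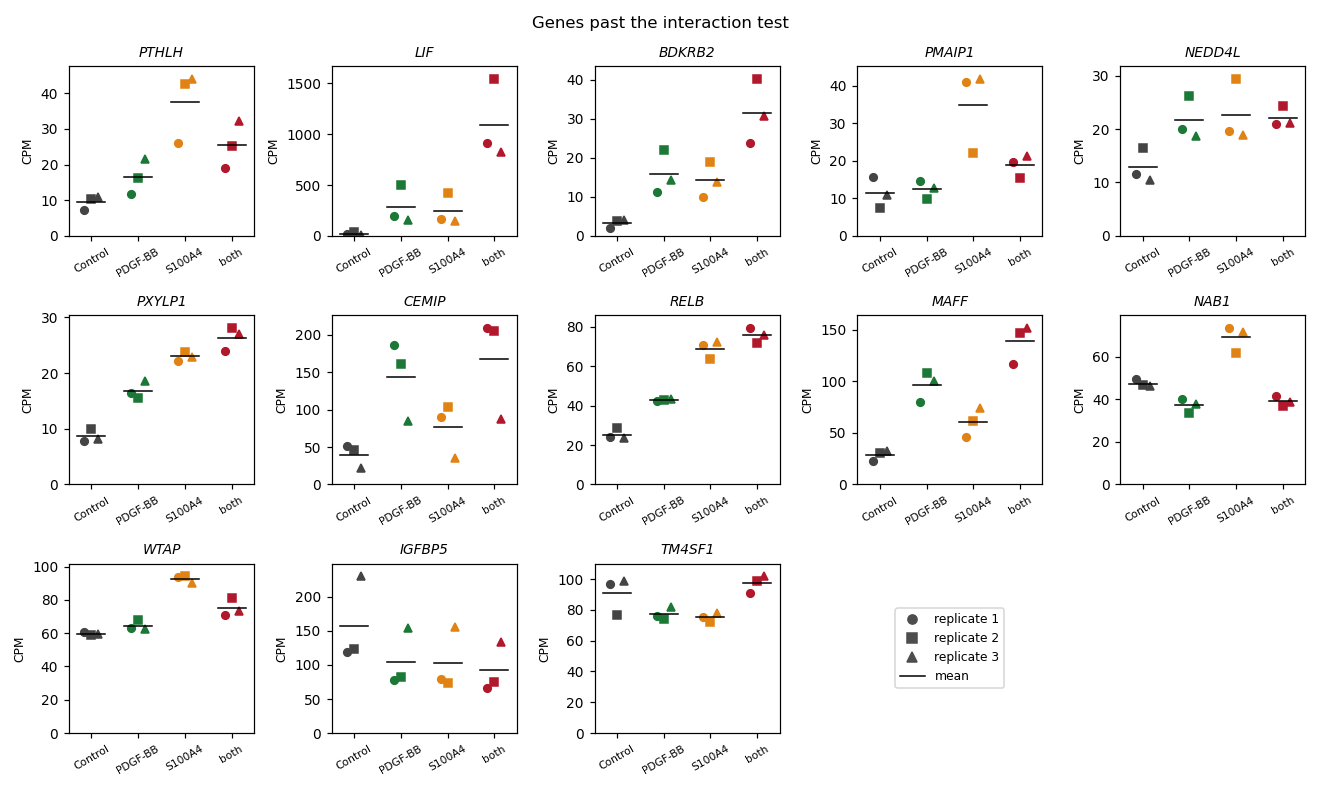
CPM in each of the 12 libraries for the 13 genes past the interaction test, by group (the last is PDGF-BB+S100A4), with the group mean as a bar; axes start at 0. In PMAIP1, NAB1 and WTAP the S100A4 libraries are the highest, in LIF and BDKRB2 the joint libraries are, and in TM4SF1 the single treatments have the lowest means.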

How the data were processed

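The deposited table holds raw read counts per gene for all 12 libraries, and the authors made it, per the submitters' processing notes, with CASAVA 1.8.2, STAR 2.4 and featureCounts 1.4.6 on the pig build Sscrofa11.1. Per the labels' protocols the libraries were TruSeq, sequenced as single reads of 100 nt. The sources used here do not give the strand setting or how multi-mapped reads were treated, so values of antisense, overlapping and near-identical genes (such as the CXC chemokines) are uncertain.

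Counts were fitted with edgeR 4.0.16 (R 4.3.3): TMM scaling, a quasi-likelihood model of all 12 libraries with group and replicate number, and Benjamini-Hochberg adjustment over 12093 genes with at least 10 counts in at least 3 of the 6 libraries compared. CPM values use the TMM-scaled counts of these genes, except that marker sums and values of untested markers are scaled to the whole table. The 12 libraries held 21455021 to 32448438 counts. The common biological coefficient of variation left after group and replicate number were fitted was 5.135%. Deviations of same-numbered libraries from their group means correlated at 0.746 to 0.911 (18 pairs), those of different numbers at −0.701 to 0.144 (36 pairs). The pairing thus comes from the data and the shared number, not from a stated animal. The replicates of each group differed by more than counting noise. A script tested the fit on simulated data. Of the tested genes 34 passed the filter through the treated libraries alone and 29 through the controls alone. Members just inside the filter, with exactly 3 such columns, numbered 256, and 313 genes with exactly 2 were not tested.

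Symbols came from a table of gene IDs (10564 of the genes tested matched) and positions from RefSeq for Sscrofa11.1. Named genes were the 15 with the largest changes in each direction among genes with a symbol, a mean log2 CPM of at least 1 and the same sign in all 3 pairs, 4 for each of 31 gene lists, 10 in each direction past both direct comparisons, 5 in each direction for the interaction, and a short set of receptors and markers. Some members are not reported here. Other list members, and the genes of the plot of single and joint treatments, were named after their values were seen. The members and lists were chosen with earlier results of these data known, so no list count is independent support. Alternatives were 18: no replicate block, the 6 libraries alone, DESeq2 1.42.0, limma-voom (limma 3.58.1), RLE and upper-quartile scaling, 3 other filters, and 9 with libraries left out.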

Additional observations from a re-analysis of the deposited data

Results flagged for a closer look

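For 13 genes the effect of S100A4 differed with and without PDGF-BB (edgeR's quasi-likelihood test of the interaction, adjusted p from 0.00016 to 0.047 over all 12093 genes). The values that follow are log2 differences of the S100A4 effect. The difference was −1.35 for PTHLH, −1.31 for LIF, −1.08 for the bradykinin receptor gene BDKRB2 and −1.0 for PMAIP1, the killer protein NOXA. It was −0.774 for the ubiquitin ligase gene NEDD4L, −0.754 for PXYLP1, −0.728 for the hyaluronan-binding CEMIP, −0.614 for the NF-kB subunit RELB and −0.557 for the transcription factor MAFF. Smaller ones were −0.470 for the EGR corepressor NAB1 and −0.410 for WTAP, part of the RNA methylation complex. It was positive for the binding protein IGFBP5 (0.43) and the membrane protein TM4SF1 (0.60).

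PMAIP1 stood at 15.7, 7.50 and 11.0 CPM in control, 14.5, 9.75 and 12.8 with PDGF-BB, 41.0, 22.1 and 41.8 with S100A4 and 19.6, 15.4 and 21.3 CPM with both. In each pair the S100A4 library was the highest. NAB1 stood at 49.4, 46.5 and 46.1 CPM in control and 73.6, 61.9 and 71.7 CPM with S100A4, but at 41.7, 36.8 and 38.7 CPM with both, below control in each pair. RELB stood at 24.0, 28.6 and 23.5 CPM in control and 79.7, 71.9 and 76.1 CPM with both. No call of these 13 held without the pairing. For the 7 genes named by rule, leaving out number 1 ended 6 of the calls, number 3 or control 3 ended 5 each, and joint library 1 or 3 ended 4 each. Control 1 ended 3 and control 2 ended 1, and leaving out number 2 or joint library 2 ended none. PMAIP1 also missed the threshold under upper-quartile scaling and the stricter filter (adjusted p = 0.0592 and 0.0683 with edgeR).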

How the results depend on the processing

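The 2 counts of all genes higher and lower than control, with no fold cut, stayed within 1.5 times of their values under 17 of the 18 alternatives. No value changed sign with a call. The 6 libraries alone can give no direct comparison or interaction. Without the replicate block, 1655 genes were higher and 1112 lower than control, 34 and 0 against PDGF-BB, 1184 and 702 against S100A4, and the interaction had 0 and 0. Here same-numbered libraries were fitted as unpaired, and 42 of 162 named genes lost their call against control. Upper-quartile scaling gave 391 genes lower than with PDGF-BB. The stricter filter, which tests 9506 genes, gave 129 genes at least 2-fold lower than control, against 297 in the main fit. The interaction called 12 positive and 49 negative genes with DESeq2 and 16 and 69 without a filter; the cause was not tested. Leaving out libraries gave 274 to 792 genes higher and 40 to 627 lower than with PDGF-BB, 1862 to 3002 lower than with S100A4, and 0 to 19 positive and 1 to 100 negative interactions. With 3 libraries per group, changes of genes near 10 counts are the least certain, and a replicate number may mark an animal, a passage or a day, which cannot be told apart.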

Other observations

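Strong falls also occurred in genes not named above. SLC40A1, ferroportin, the exporter of iron, stood at 283, 319 and 199 CPM in control and 35.4, 75.7 and 27.2 CPM with both proteins (−2.61 ± 0.15). DAB2, an endocytic adaptor, went from 283, 256 and 248 CPM to 64.2, 70.7 and 77.4 CPM (−1.89 ± 0.11). KLHL24, an adaptor of ubiquitin ligases, went from 25.0, 31.6 and 26.6 CPM to 5.48, 10.8 and 7.58 CPM (−1.81 ± 0.10). It belongs to the list of FOXO targets and is already part of the count given there. THPO, thrombopoietin, went from 7.93, 3.63 and 9.10 CPM to 1.43, 0.596 and 2.67 CPM (−2.17 ± 0.17). The groups did not overlap for any of these 4 genes, and 16.2% of all genes tested were likewise lower without overlap.

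A gene with no symbol in the table, ENSSSCG00000016254, had 2, 0 and 1 counts in controls 1 to 3 and 238, 792 and 682 counts with both proteins. MYBPC3, a cardiac myosin-binding protein, had 1, 1 and 0 counts and then 22, 47 and 19. The cardiomyocyte markers, of which 3 of 6 were in the deposited table, summed to at most 0.217 CPM in these 6 libraries. ENSSSCG00000016254 and MYBPC3 passed the filter on low counts through the treated libraries alone. Both were named after their counts were seen.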
